A study of Mus musculus with 18 samples.

Results

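The Trim30 gene cluster of the mouse holds 4 protein-coding genes, *Trim30a*, *Trim30b*, *Trim30c* and *Trim30d*, which were followed here among the 45706 genes listed for each library of OT-I CD8+ T cells. They were taken by gene symbol, and the set was selected on measured values of these libraries, because *Trim30c* had been noted for its rise with ibrutinib in repeat peptide stimulated cells. Its values in that comparison, and the repeat against single peptide values that use the same libraries, are therefore given as a description with no test. All 4 symbols matched a single gene identifier each, and all 4 genes passed the filter on low counts.

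CD8+ T cells were isolated from spleens of OT-I mice, which carry a transgenic T cell receptor for a peptide of ovalbumin (OVA) and are labelled WT. The cells grew in IL-7 and IL-15 with 10 ng/ml of the peptide. Repeat peptide stimulated cells received the peptide on each of the first 5 days and stayed in medium with it until harvest, whereas single peptide stimulated cells met it once for 48 hours and then rested. Ibrutinib, an irreversible inhibitor of the kinase BTK, was added at 1 µM from day 5, with DMSO as its solvent control, and RNA was taken on day 8. There were 4 libraries of repeat peptide cells with DMSO (experiments A, B, C and D), 5 of repeat peptide cells with ibrutinib (A to E), 5 of single peptide cells with DMSO (A, B, C, D and F) and 4 of single peptide cells with ibrutinib (A to D). The experiment letters stand for what the labels give as genotype. That entry mentions a BTK KO for experiments B, C, D and E, reads INHB-1 left over for A and PKC igoni-2 for F, while the strain entry of all these libraries says WT, and it was read as the name of an experiment. The labels give no animal for a library, so p-values measure the spread between these libraries, which may be in part technical.

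TRIM proteins carry a RING domain with ubiquitin ligase activity, a B-box and a coiled coil, and many of them have a C-terminal SPRY domain that binds targets. Many TRIM genes are induced by interferons and act in the defence against viruses. TRIM30a is known as a negative regulator of Toll-like receptor signalling, which it dampens by promoting the degradation of TAB2 and TAB3 upstream of NF-κB, and TRIM30d, also called TRIM79, restricts tick-borne flaviviruses in mouse cells. Little is settled about *Trim30b* and *Trim30c*. In CD8+ T cells, repeated antigen contact drives a state of exhaustion in which inhibitory receptors are raised and genes of resting and memory-like cells are lowered.

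The 4 genes lie in a row on the minus strand of chromosome 7 over 152.468 kb, between positions 104355382 and 104507849 of GRCm38. In order of position, *Trim30b* (ENSMUSG00000052749) spans 104355382 to 104369884, *Trim30c* (ENSMUSG00000078616) 104382065 to 104400837, *Trim30a* (ENSMUSG00000030921) 104409025 to 104465193, and *Trim30d* (ENSMUSG00000057596) 104470014 to 104507849. The pseudogene *Trim30e-ps1* follows at 104532959 to 104535361 and was nearly silent, with 1 count in the repeat peptide DMSO library of experiment C and 0 in the other 17 libraries. Translated from the annotated transcripts, the longest proteins had 496 residues for *Trim30a*, 203 for *Trim30b*, 513 for *Trim30c* and 497 for *Trim30d*. The closest pair was *Trim30a* and *Trim30d*, with 82.7% identical residues over 496 aligned positions. *Trim30c* shared 72.2% of 496 aligned residues with *Trim30a* and 73.6% of 497 with *Trim30d*, and the short *Trim30b* shared between 70.8% and 77.1% with the other members.

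Interferon-induced promoters often hold an interferon-stimulated response element, whose core was searched as GAAANNGAAA and, on the other strand, TTTCNNTTTC, with N for any base. The promoters of *Trim30a*, *Trim30c* and *Trim30d* are shown around this core because *Trim30a* and *Trim30d* rose and fell together across the libraries while *Trim30c* followed another pattern. Each stretch is 85 bases long, comes from the RefSeq promoters of GRCm38.p6, runs 5′ to 3′ on the minus strand, and ends before the annotated start site. Capitals mark the core or the bases aligned to it. The *Trim30a* stretch is chr7:104465195-104465279, that of *Trim30d* chr7:104507856-104507940 and that of *Trim30c* chr7:104400881-104400965.
Trim30a: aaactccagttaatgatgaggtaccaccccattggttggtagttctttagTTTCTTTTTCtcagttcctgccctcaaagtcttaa
Trim30d: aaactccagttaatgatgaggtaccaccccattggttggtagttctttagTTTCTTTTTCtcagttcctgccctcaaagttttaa
Trim30c: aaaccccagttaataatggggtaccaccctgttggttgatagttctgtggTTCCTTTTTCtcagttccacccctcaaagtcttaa

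The *Trim30a* and *Trim30d* stretches differed at 1 of 85 bases, and *Trim30c* differed from *Trim30a* at 11. The core was present in *Trim30a*, 36 bases before the RefSeq start site, and in *Trim30d*, 41 bases before it. Another RefSeq window of *Trim30a*, inside the gene (104446076 to 104446375), also held a core, just after its start site, and is not shown. *Trim30c* carried T3C against the *Trim30a* core, counted from the 5′ end of the capitals, so the searched letters were not met there. The aligned bases lay 137 bases before its RefSeq start. That start lies inside the span annotated for the gene here, which ends at 104400837, so the aligned bases are closer to that end. For *Trim30a* and *Trim30d* the RefSeq start is the end of the annotated span. No core was found in the 300-base RefSeq window of *Trim30b*, but that window (104358597 to 104358896) lies 10.988 kb inside the span annotated for the gene here, so it may not be the start used in these cells. Of all 32851 RefSeq promoters of this length, 1131 (3.44%) held a core. A match of this kind is a description of letters and says nothing about binding. Whether the core bears on the expression of these genes was not tested.

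Close copies can exchange reads, and this was checked first. Among stretches of 150 bases in the annotated transcripts, *Trim30a* and *Trim30d* shared 126, which was 3.24% of those of *Trim30a* and 3.23% of those of *Trim30d*. *Trim30b* and *Trim30c* shared none with another member, and no member shared any with another gene. Among stretches of 75 bases, *Trim30b* shared 6 with *Trim30d*, and *Trim30c* again shared none with another member. Of the 4 transcripts counted for *Trim30a*, 3 had a sequence to search. The deposited counts showed the same division as the stretches of 150 bases. Expected counts of *Trim30b* and *Trim30c* were whole within 0.02 in all 18 libraries, whereas those of *Trim30a* and of *Trim30d* were whole in 1 library each, and their sum was whole in all 18. Reads were thus split between *Trim30a* and *Trim30d*, while the values of *Trim30c* needed no split.

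The libraries held between 23445922 and 51995372 expected counts in total. CD8 T cell markers (8 genes) summed to 3080 to 4209 TPM in all 18 libraries, where TPM is a level per transcript length, scaled to the same total in each library. *Cd4* reached at most 0.17 TPM. Markers of other cells were low but not equal between the groups. Summed B cell markers (5 genes, highest *Cd79b*) ranged from 1.15 to 2.28 TPM in repeat peptide cells with DMSO, 1.06 to 4.12 with ibrutinib, 3.17 to 7.1 in single peptide cells with DMSO and 3.89 to 5.9 with ibrutinib. Summed dendritic cell markers (6 genes, with *Cd209a* at 0 in every library) ranged from 0.45 to 2.35 TPM in repeat peptide cells with DMSO and 0.25 to 0.76 with ibrutinib. In single peptide cells they ranged from 0.04 to 0.3 TPM with DMSO and 0.03 to 0.26 with ibrutinib. Summed myeloid markers (7 genes) stayed at or below 10.05 TPM. Summed NK cell markers (3 genes), of which activated CD8+ T cells can express some, ranged from 2.64 to 11.55 TPM in repeat peptide cells with DMSO. With ibrutinib these cells had 2.69 to 25.72 TPM. Single peptide cells had 0.59 to 3.67 TPM of NK cell markers with DMSO and 1.4 to 2.73 with ibrutinib. In bulk RNA, fewer cells of a kind and less RNA per cell cannot be told apart, and the part of these cells in the values below was not tested.

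*Trim30a* was the most abundant member in every library, *Trim30d* came next in repeat peptide cells, *Trim30c* ranged from none to a level above *Trim30d*, and *Trim30b* was barely expressed. Over the 18 libraries the median was 47.2 TPM for *Trim30a*, 10.4 for *Trim30d*, 5.19 for *Trim30c* and 0.205 for *Trim30b*. In single peptide cells the ranges of *Trim30c* and *Trim30d* overlapped between libraries, while within a library *Trim30c* had the higher TPM in 8 of 9, with the DMSO library of F the other way. In repeat peptide cells every library had more *Trim30d* than *Trim30c*. The plot of TPM by library shows the members side by side.

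**Figure D1:**
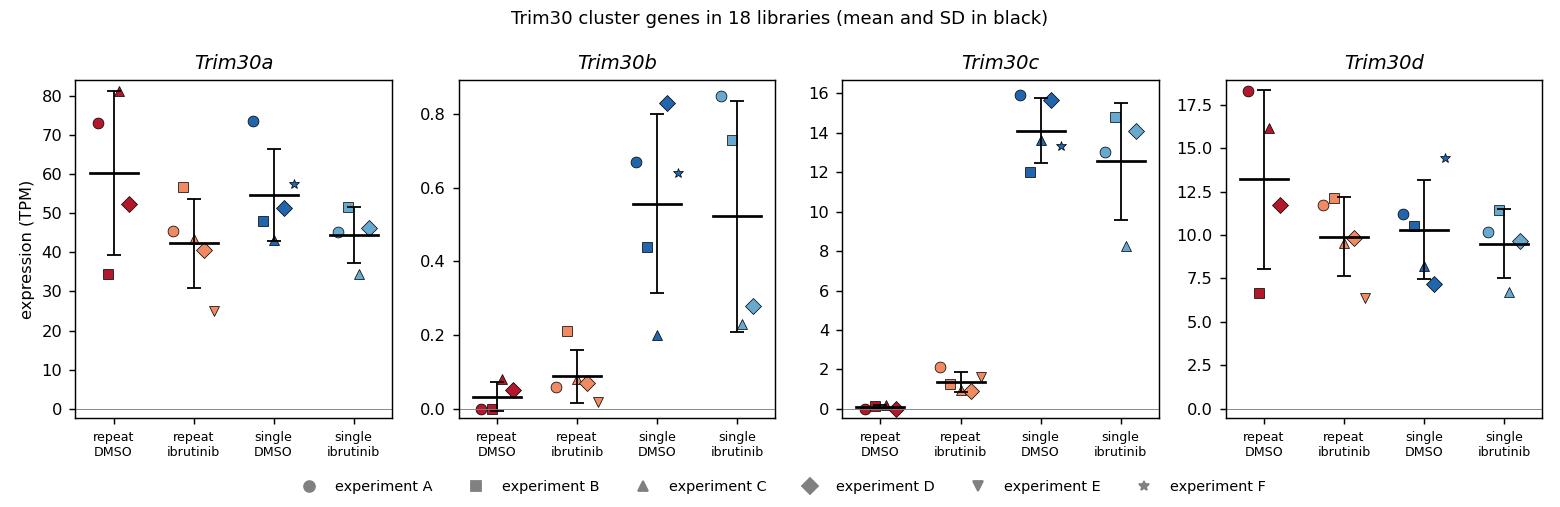
Expression of the 4 Trim30 genes in TPM (vertical axis, a separate scale for each gene) in the 4 groups (horizontal axis). Each point is a library, its shape gives the experiment, and black lines give the mean and SD. *Trim30c* lies between 0 and 0.21 TPM in repeat peptide cells with DMSO, between 0.93 and 2.11 with ibrutinib, and at 8.26 TPM or more in all 9 single peptide libraries.

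*Trim30c* was nearly absent from repeat peptide cells with DMSO. Its expected counts there were 0 in experiment A, 4 in B, 8 in C and 0 in D, and a count of 0 allows up to 3 counts. With ibrutinib they were 46 in A, 29 in B, 26 in C, 54 in D and 58 in E. Single peptide cells with DMSO gave 396, 345, 374, 668 and 317 counts in A, B, C, D and F. Single peptide cells with ibrutinib gave 411, 460, 359 and 538 in A to D. The repeat peptide groups did not overlap with each other or with the single peptide groups, and both single peptide groups overlapped. How many of all tested genes have groups without overlap was not counted.

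In counts normalized to the mean library size, *Trim30c* averaged 2.48 ± 2.99 (SD, n = 4) in repeat peptide DMSO libraries. With ibrutinib the average was 43.4 ± 18.03 (SD, n = 5). The ratio of these means, the difference for which the gene was chosen, was 17.5, and the edgeR log2 fold change was 3.87 with a standard error (SE) of 0.504, neither of them tested. Within experiments the ratio was 8.35 in B and 4.86 in C. In A and D, where DMSO gave no count, ibrutinib was at least 16.0-fold and at least 9.40-fold higher, with 3 counts set as the floor of the DMSO library. The repeat peptide DMSO library of C lowered the log2 fold change, which rose to 4.80 without it. In this comparison 4.01% of the 12255 tested genes were called higher with ibrutinib and 1.92% lower, where a called gene has an adjusted p under 0.05, averages at least 50 normalized counts and has a log2 fold change beyond 0.2 in size. These shares correspond to 491 and 235 genes, and to 1038 and 656 with the experiment as a block.

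The single peptide cells had far more of this RNA. *Trim30c* averaged 465 ± 94.7 (SD, n = 5) normalized counts with DMSO. The ibrutinib average was 427 ± 93.1 (SD, n = 4). With DMSO, the mean of the single peptide libraries was 187 times that of the repeat peptide libraries, with a log2 fold change of -7.31 (SE 0.493) for repeat against single and of -8.24 without the repeat peptide DMSO library of C. With ibrutinib, the single peptide mean was 9.83 times the repeat peptide mean, with a log2 fold change of -3.31 (SE 0.339). Repeat peptide cells had the lower value in each of the 4 experiments under both treatments. Within experiments, single peptide cells with ibrutinib exceeded repeat peptide cells with ibrutinib by 6.98 times in A, 13.1 in B, 11.4 in C and 18.4 in D. The repeat peptide libraries of both comparisons were used to choose the gene, so these differences are not tested.

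The ibrutinib comparison in single peptide cells sets against each other libraries in which *Trim30c* was not noted, so all 4 members were tested. The spread in the test came from a fit of all 18 libraries, the repeat peptide ones included. *Trim30c* did not pass the test there, with a log2 fold change of -0.13 (SE 0.309, adjusted p = 0.926 by edgeR's quasi-likelihood test). With only the single peptide groups in the fit, *Trim30c* also had -0.13 (SE 0.186, adjusted p = 0.841 by the same test). Ibrutinib gave the lower value in 3 of 4 experiments. *Trim30a* had a log2 fold change of -0.19 (SE 0.166, adjusted p = 0.707), *Trim30b* of -0.29 (SE 0.534, adjusted p = 0.892) and *Trim30d* of -0.10 (SE 0.193, adjusted p = 0.908). With the experiment as a block, edgeR gave -0.18 for *Trim30a* (adjusted p = 0.476), -0.27 for *Trim30b* (adjusted p = 0.816) and -0.17 for *Trim30c* (adjusted p = 0.733). The direction for *Trim30d* turned to 0.02 (adjusted p = 0.959) with the experiment as a block and also to 0.02 without the single peptide DMSO library of F. Ranges of the 2 groups overlapped for each member. Of all tested genes, 0.351% were called higher and 2.69% lower with ibrutinib, or 43 and 330 genes, against 340 and 774 with the block. No member was among them.

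**Figure D2:**
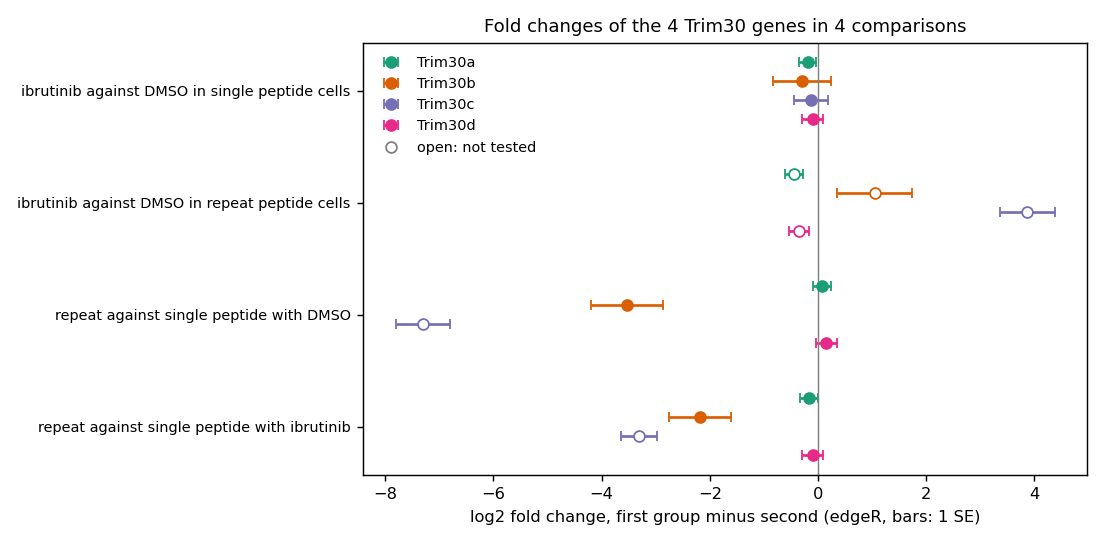
Log2 fold changes of the 4 Trim30 genes from edgeR (horizontal axis, first named group minus second) in the 4 comparisons (vertical axis). Points are estimates, bars are 1 SE, and open points were not tested. The filled points of *Trim30b* for repeat against single peptide come from a test that is no support beyond its counts. *Trim30c* stands at 3.87 for ibrutinib in repeat peptide cells and at -7.31 and -3.31 for repeat against single peptide, while *Trim30a* and *Trim30d* stay between -0.44 and 0.16.

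*Trim30b*, the neighbour of *Trim30c*, was expressed at a trace level with the same order of the groups. Its expected counts were 0, 0, 8 and 3 in repeat peptide cells with DMSO (A to D) and 3, 7, 6, 10 and 2 with ibrutinib (A to E). Single peptide cells gave 35, 30, 10, 34 and 26 with DMSO (A, B, C, D, F) and 24, 28, 25 and 25 with ibrutinib (A to D). Every single peptide library of a treatment had more normalized counts than every repeat peptide library of that treatment. The share of all tested genes that separate in this way was not counted.

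The log2 fold change of *Trim30b* for repeat against single peptide was -3.53 with DMSO (SE 0.662, adjusted p = 0.000222 by edgeR) and -2.18 with ibrutinib (SE 0.58, adjusted p = 0.00544). It was lower in repeat peptide cells in 4 of 4 experiments under both treatments. With a mean of 15.7 normalized counts it was under the minimum of 50 for a called gene and is not counted as called. It passed the filter on low counts through the single peptide libraries, where it was high, since no repeat peptide library had more than 10 counts, so these p-values are no support beyond the counts themselves. Without the repeat peptide DMSO library of C the value with DMSO was -4.65. With DMSO, repeat peptide cells had 22.8% of the tested genes called higher and 24.2% called lower. With ibrutinib the shares were 18.7% and 19.6%, so a lower level in repeat peptide cells is a frequent outcome among the tested genes. For ibrutinib against DMSO in repeat peptide cells *Trim30b* stood at 1.05 (SE 0.692), with overlapping groups and a value of 2.18 without the same library of C. This value was not tested. TPM of *Trim30b* is less sure than its counts, since the length assigned to the gene ranged from 1029 to 3060 bases between libraries.

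*Trim30a* dominated the cluster in all groups. It was measured at 73.05, 34.46, 81.17 and 52.37 TPM in repeat peptide cells with DMSO (A to D), and at 45.49, 56.75, 43.46, 40.66 and 24.94 TPM with ibrutinib (A to E). Single peptide cells had 73.5, 48.05, 43.04, 51.22 and 57.47 TPM with DMSO (A, B, C, D, F) and 45.15, 51.57, 34.58 and 46.31 TPM with ibrutinib (A to D). All groups overlapped, and the widest spread was among the repeat peptide DMSO libraries, with B at the bottom and C at the top.

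Repeat and single peptide cells did not differ in *Trim30a* beyond this spread. The log2 fold change was 0.08 with DMSO (SE 0.165, adjusted p = 0.704 by edgeR) and -0.17 with ibrutinib (SE 0.165, adjusted p = 0.433). The direction with DMSO turned to -0.09 without the repeat peptide DMSO library of C and to -0.04 with an offset for the effective length. Without the repeat peptide DMSO library of B the value with DMSO was 0.27 (adjusted p = 0.067 by edgeR). With ibrutinib in repeat peptide cells *Trim30a* had a log2 fold change of -0.44 (SE 0.165), not tested, with lower values in 3 of 4 experiments.

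*Trim30d* followed *Trim30a* at a lower level. It was measured at 18.28, 6.68, 16.14 and 11.71 TPM in repeat peptide cells with DMSO (A to D) and at 11.73, 12.13, 9.52, 9.82 and 6.36 TPM with ibrutinib (A to E). Single peptide cells had 11.23, 10.52, 8.19, 7.17 and 14.44 TPM with DMSO (A, B, C, D, F) and 10.19, 11.44, 6.73 and 9.67 TPM with ibrutinib (A to D). As for *Trim30a*, all groups overlapped and B was the lowest repeat peptide DMSO library.

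For repeat against single peptide, *Trim30d* had a log2 fold change of 0.16 with DMSO (SE 0.192, adjusted p = 0.512 by edgeR) and -0.10 with ibrutinib (SE 0.192, adjusted p = 0.709). Leaving out each library in turn gave 0.01 to 0.36 with DMSO, with adjusted p by edgeR from 0.062 to 0.970. The direction with ibrutinib turned to 0.06 when TPM took the place of counts. With ibrutinib in repeat peptide cells it stood at -0.35 (SE 0.191), not tested. Because these genes exchange reads, both were also counted as 1 gene, an alternative chosen after seeing the data. The sum gave 0.09 (adjusted p = 0.660) with DMSO and -0.16 (adjusted p = 0.457) with ibrutinib for repeat against single peptide, and -0.18 (adjusted p = 0.732) for ibrutinib in single peptide cells.

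The shares of the members in the cluster differed between repeat and single peptide cells, which follows in part from the *Trim30c* values the gene was chosen for and is given as a description. In single peptide cells *Trim30c* held 18.01% ± 2.74 (SD, n = 5) of the summed TPM of the 4 genes with DMSO. Its share with ibrutinib was 18.6% ± 1.45 (SD, n = 4). In repeat peptide cells its share was 0.133% ± 0.158 (SD, n = 4) with DMSO. It was 2.77% ± 1.41 (SD, n = 5) with ibrutinib. With DMSO, *Trim30a* held 82.1% ± 1.61 (SD, n = 4) in repeat and 68.3% ± 2.51 (SD, n = 5) in single peptide cells. The summed level of repeat peptide cells was 73.6 ± 26.0 TPM (SD, n = 4) under DMSO and 53.6 ± 13.7 TPM (SD, n = 5) under ibrutinib. That of single peptide cells was 79.6 ± 14.3 TPM (SD, n = 5) under DMSO and 66.99 ± 12.2 TPM (SD, n = 4) under ibrutinib. The ranges of the sum overlapped between all groups.

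**Figure D3:**
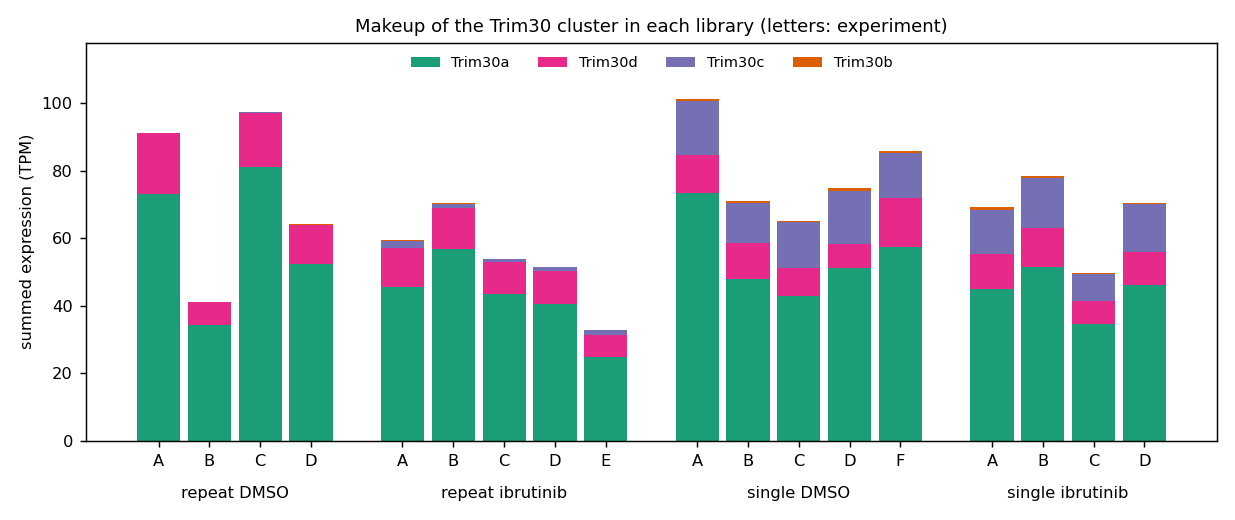
Summed TPM of the 4 Trim30 genes (vertical axis, stacked bars) in each of the 18 libraries (horizontal axis, with the experiment letter under each bar and the groups below). The *Trim30c* segment is visible in all 9 single peptide libraries, thin in the 5 repeat peptide libraries with ibrutinib and at most 0.21 TPM high in the 4 with DMSO.

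*Trim30a* and *Trim30d* followed each other across the 18 libraries, and *Trim30c* followed *Trim30b*. The correlation of log2 CPM (counts scaled to library size) was 0.787 for *Trim30a* with *Trim30d*, a pair that exchanges reads, and 0.884 for *Trim30b* with *Trim30c*. It was -0.047 for *Trim30a* with *Trim30c* and -0.157 for *Trim30c* with *Trim30d*. All these correlations are descriptions over libraries that share groups and experiments, so a gene that differs between the groups correlates with every other such gene.

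The 5 genes most like *Trim30c*, out of 10463 that averaged at least 50 normalized counts, were *Il6ra* (r = 0.986), *Nacc2* (0.982), *Cacna2d4* (0.981), *S1pr1* (0.979) and *Nsg2* (0.979). On deviations from experiment means, 1 of them was again among the top 5, while the median r of the same 5 genes was 0.987. *Il6ra* encodes the interleukin-6 receptor alpha chain and *S1pr1* the sphingosine 1-phosphate receptor by which lymphocytes leave lymph nodes. *Nacc2* encodes a transcriptional repressor, *Cacna2d4* an auxiliary subunit of voltage-gated calcium channels and *Nsg2* a vesicle protein best known from neurons. *Il6ra* averaged 0.93 TPM in repeat peptide cells with DMSO, 5.41 with ibrutinib, 37.2 in single peptide cells with DMSO and 40.2 with ibrutinib. For *S1pr1* the means were 11.6, 46.3, 148 and 189 TPM in the same order. Each of the 5 genes had its lowest mean in repeat peptide cells with DMSO and its next lowest with ibrutinib, as *Trim30c* did. Their highest means were in single peptide cells. This shared order follows from the choice of the genes by correlation with *Trim30c* over the same libraries and is no separate result.

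**Figure D4:**
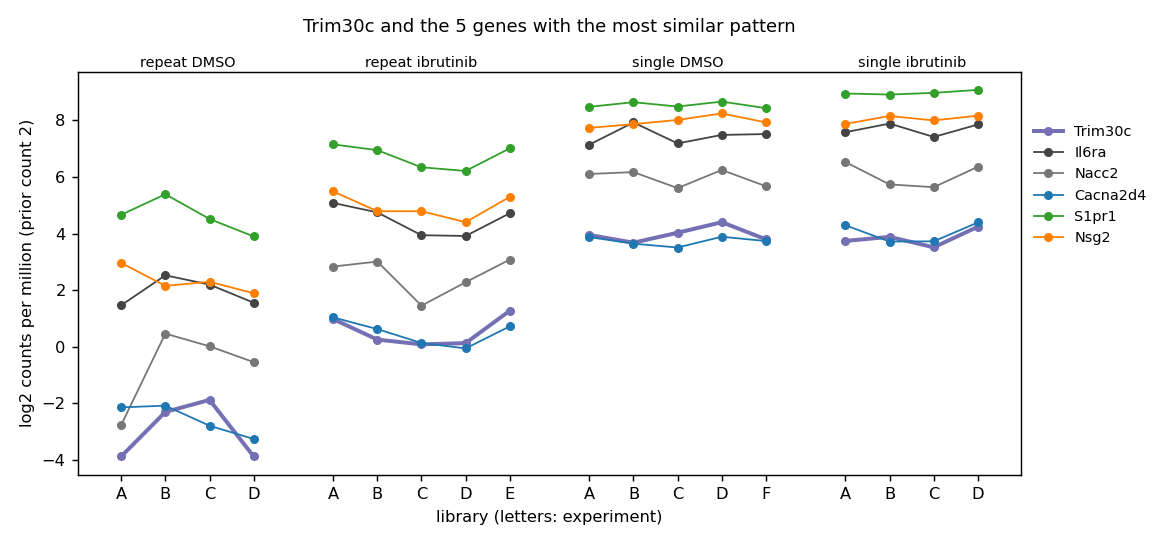
Log2 CPM with a prior count of 2 (vertical axis) of *Trim30c* and the 5 genes with the most similar pattern, by library (horizontal axis, grouped, with the experiment letter). Points are libraries and lines join libraries of a group only for reading. All 6 genes are lowest in the 4 repeat peptide libraries with DMSO.

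The genes most like *Trim30a* were *Trim12c* (r = 0.848), *Sdc3* (0.801), *Trim30d* (0.787), *Irf7* (0.783) and *Oas3* (0.776). *Irf7* encodes a transcription factor of the interferon response and *Oas3* an antiviral oligoadenylate synthetase, while *Sdc3* encodes the proteoglycan syndecan-3. Those most like *Trim30d* were *Trim25* (0.820), which encodes a ubiquitin ligase of RIG-I signalling, *Pank3* (0.794), *Trim30a* (0.787), *Mapk1ip1l* (0.773) and *Cep135* (0.772). Against the mean log2 level of 35 tested genes of the type I interferon response, *Trim30a* had r = 0.8288 and *Trim30d* r = 0.587, whereas *Trim30c* had -0.244 and *Trim30b* -0.038. *Irf7*, *Oas3* and *Trim25* belong to that list.

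Within 250 kb of the cluster, 35 further genes are annotated, of which 5 passed the filter on low counts and 20 had no count in any library. The 17 olfactory receptor genes and pseudogenes among them were not expressed at a level that could be tested. All 5 tested neighbours are TRIM genes on the side of *Trim30b*. *Trim12a* was lower in repeat peptide cells, at 74.5 ± 10.3 TPM (SD, n = 4) against 139 ± 34.6 (SD, n = 5) with DMSO (log2 fold change -0.996, SE 0.112, adjusted p = 9.78e-07 by edgeR) and with -0.52 (SE 0.109, adjusted p = 0.000964) with ibrutinib. *Trim5* fell with DMSO by 0.72 on the log2 scale (SE 0.146, adjusted p = 0.000461) and *Trim34a* by 0.32 (SE 0.118, adjusted p = 0.0267). *Trim5* stood at -0.28 (adjusted p = 0.118) and *Trim34a* at -0.22 (adjusted p = 0.145) with ibrutinib. *Trim12c*, the nearest neighbour of *Trim30b*, had 0.12 (adjusted p = 0.517) with DMSO and -0.01 (adjusted p = 0.952) with ibrutinib. *Trim34b*, at most 1.16 TPM in any library, passed neither test. None of the 5 was called by edgeR or by DESeq2 for ibrutinib against DMSO in either kind of cell, with 0 at an unadjusted p under 0.05 in single peptide cells and 2 (*Trim5* and *Trim12a*) in repeat peptide cells. The call of *Trim34a* with DMSO held in 12 of 16 alternatives, and *Trim5* with ibrutinib was called lower in 2 of 16, among them the block.

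**Figure D5:**
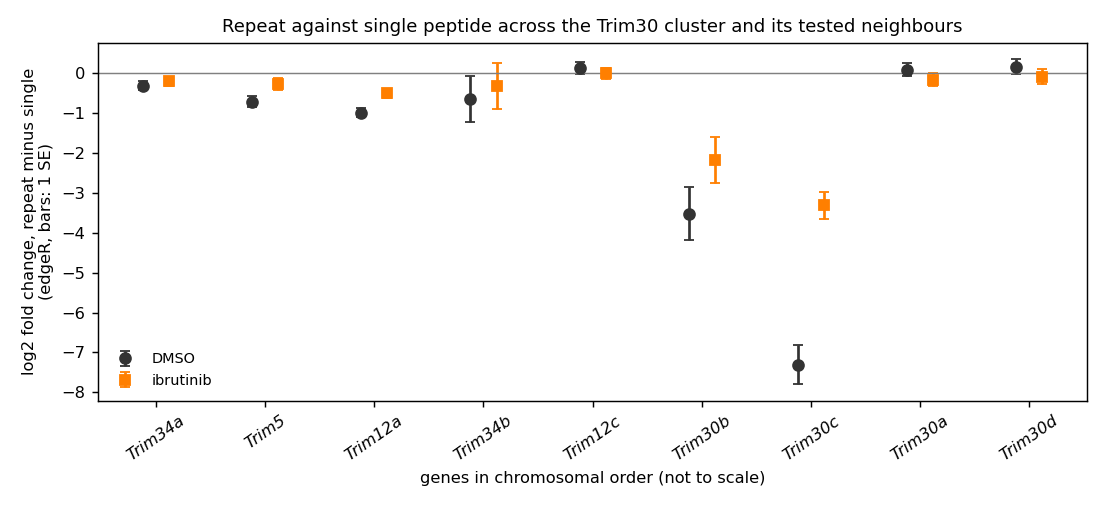
Log2 fold changes of repeat against single peptide cells from edgeR (vertical axis, bars 1 SE) for the 4 Trim30 genes and their 5 tested neighbours in chromosomal order (horizontal axis, not to scale), with DMSO (circles) and with ibrutinib (squares). *Trim30c* (-7.31 and -3.31, not tested) and *Trim30b* (-3.53 and -2.18) lie between *Trim12c* and *Trim30a*, which are within 0.17 of 0 under both treatments. *Trim30b* passed the filter on low counts through its single peptide libraries, so its test is no support beyond the counts.

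Response element cores were found by the same search in the promoters of *Trim34a*, *Trim5*, *Trim12a* and *Trim12c* and not in those of *Trim34b* and *Trim6*. Of the genes with a core, *Trim12a*, *Trim5* and *Trim34a* fell in repeat peptide cells with DMSO, and *Trim12c*, *Trim30a* and *Trim30d* did not pass the test.

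Of 63 TRIM genes outside the cluster, 37 were tested. In repeat against single peptide cells with DMSO, 3 were called higher and 13 lower (median log2 fold change -0.12, against -0.002 over all tested genes), and with ibrutinib 4 were called higher and 11 lower (-0.21 against -0.02). The called shares with DMSO were 8.11% higher and 35.1% lower, against 22.8% and 24.2% of all tested genes, and with ibrutinib 10.8% and 29.7%, against 18.7% and 19.6%. With ibrutinib these counts were 7 higher with the block and 7 lower without the single peptide ibrutinib library of A. *Trim65*, which encodes a ubiquitin ligase of MDA5 signalling, had the largest fall among the called genes with DMSO (log2 fold change -1.81, adjusted p = 1.44e-06), and *Trim16* the largest rise (2.45, adjusted p = 4.46e-05). The smallest and largest values of the list were -2.27 for *Trim47* and 3.36 for *Trim7* with DMSO, neither of them called. Ibrutinib called 1 TRIM gene (2.70%, against 4.01% of all tested genes called higher) in repeat peptide cells, *Trim65*, which rose by 0.83 on the log2 scale (adjusted p = 0.0188). It was not called without any 1 of the repeat peptide libraries C or D with DMSO and A or B with ibrutinib, and 2 genes were called with the block. In single peptide cells edgeR and DESeq2 called 0 of the 37 with ibrutinib, with 3 lower at an unadjusted p under 0.05 and 1 called lower with the block.

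The type I interferon response list, 35 tested genes of 37, was called in both directions in repeat against single peptide cells. With DMSO, 8 of its members (22.9%) had higher and 9 (25.7%) had lower calls in repeat peptide cells, close to the 22.8% and 24.2% of all tested genes, from *Samhd1* at -1.56 (adjusted p = 7.77e-09) to *Mx1* at 1.54 (adjusted p = 9.45e-05) among the called genes. With ibrutinib, 8 (22.9%) were called higher and 3 (8.57%) lower, against 18.7% and 19.6%. Ibrutinib called 7 lower in single peptide cells, where 2.69% of all tested genes were lower, with 0 called higher by edgeR or DESeq2 and 0 higher at an unadjusted p under 0.05, and with a median log2 fold change of -0.68 against 0.01 over all tested genes. *Oasl2* was the lowest of them at -2.53 (adjusted p = 0.0216), and *Irf7* fell by 0.79 (adjusted p = 0.0189). The 7 lower genes became 19 with the block, 4 without the single peptide ibrutinib library of A and 2 without that of B. In repeat peptide cells, where 1.92% of all tested genes were lower and 4.01% higher with ibrutinib, it called 5 of the list lower, among them *Irf7* at -0.72 (adjusted p = 0.0165) and *Usp18* at -1.41 (adjusted p = 0.0402), and 1 higher, *Samhd1* at 0.92 (adjusted p = 0.000114). With the block 10 were lower and 2 higher. The 5 lower genes became 0 without the repeat peptide DMSO library of C, 1 without that of D, and 2 without that of A or without the ibrutinib library of A, B or E.

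Genes of interferon signalling (16 tested of 17) were mostly lower in repeat peptide cells with DMSO, where 13 were called lower and 2 higher, against 24.2% and 22.8% of all tested genes. The median log2 fold change of the list was -0.66, against -0.002 over all tested genes. The suppressor *Socs3* had -2.67 (adjusted p = 3.71e-07) and the receptor chain *Ifngr2* -2.46 (adjusted p = 7.76e-07), and *Ifng* itself rose by 4.04 (adjusted p = 7.93e-06). With ibrutinib 4 (25%) were called lower and 3 (18.75%) higher, near the 19.6% and 18.7% of all tested genes. Within repeat peptide cells, against a background of 4.01% higher and 1.92% lower, ibrutinib called 4 higher, which were *Socs3* (1.35), *Ifngr2* (1.15), *Irf1* (0.77) and *Ifnar2* (0.59), and 2 lower, *Ifng* (-1.78) and *Irf8* (-1.02). The 4 higher became 9 with the block, 2 without the repeat peptide DMSO library of C and 7 without the ibrutinib library of D. The 2 lower became 1 without the DMSO library of C or the ibrutinib library of A, B or C, and 0 without the DMSO library of D. In single peptide cells 4 were called lower with ibrutinib, against 2.69% of all tested genes, with *Irf8* the lowest at -2.91 (adjusted p = 5.03e-05), or 2 without the DMSO library of C or the ibrutinib library of B or D.

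The route from Toll-like receptors to NF-κB on which TRIM30a acts was represented by 12 tested genes of 13. In repeat peptide cells with DMSO, 6 were called lower and 2 higher, or 4 higher with the block and 3 lower without the repeat peptide DMSO library of D. The shares of 50% lower and 16.7% higher stood beside 24.2% and 22.8% of all tested genes. The kinase gene *Ikbkb* had the largest fall (-1.46, adjusted p = 3.11e-06), and *Tab3*, encoding a target of TRIM30a, fell by 0.34 on the log2 scale (adjusted p = 0.0271). With ibrutinib 5 were called lower and 2 higher (41.7% and 16.7%, against 19.6% and 18.7% of all tested genes), among the latter *Tab2* (0.40, adjusted p = 0.0246). These became 3 lower without the single peptide ibrutinib library of A and 1 higher without that of D. Neither edgeR nor DESeq2 called any of the 12 for ibrutinib in single peptide cells, with 0 at an unadjusted p under 0.05. In repeat peptide cells both tools also called 0, with 2 higher and 1 lower at an unadjusted p under 0.05, and edgeR called 2 higher with the block and 1 higher without the repeat peptide ibrutinib library of D.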

How the data were processed

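RNA-seq of 18 libraries was analysed from the gene tables that the authors deposited. The authors trimmed reads with Trim Galore, aligned them with STAR within RSEM 1.3.1 to GRCm38 and its Ensembl annotation, and kept 1 table per library. The expected counts that the authors deposited are RSEM's estimates per gene, need not be whole and were rounded. The TPM values deposited by the authors are scaled to the same total in each library and served for levels only. The deposited effective length of a gene served in an alternative. SAMtools 1.10, R 4.0.3 and DESeq2 1.30.0 are also named in the submitters' processing notes.

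Genes were matched by identifier to GENCODE M21 (45143 of 45706), and 27903 protein-coding or lncRNA genes entered edgeR 4.0.16 (R 4.3.3). Of these, 12255 passed filterByExpr. Counts were normalized by TMM, all 18 libraries were fitted in 4 groups with glmQLFit (robust), and glmQLFTest p-values were adjusted by Benjamini-Hochberg over all tested genes. The standard error is the absolute log2 fold change over the square root of the F statistic. Genes named besides the members were the pseudogene, tested genes within 250 kb, for each member that averaged at least 1 TPM, the 5 genes most correlated with it among those averaging at least 50 normalized counts, the extreme members of the lists, and list genes chosen after their values were seen. Members and lists were chosen with earlier results of these data known. Alternatives were DESeq2 1.42.0 size factors and Wald test, no filter, all gene types, only the compared groups, the length offset, TPM, a replicate block, and each library left out. Protein and promoter alignments used Biopython 1.88.

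The experiment letters were taken as pairing the libraries, because deviations from the group means correlated above 0.1 in all 24 pairs of libraries of an experiment (0.160 to 0.494), against a median of -0.076 in the other 97 pairs. The study's methods name no block, so the reported tests have none and leave this pairing out. Values with the experiment as a block are given as an alternative. Within each group, the counts of any pair of libraries differed by more than sampling noise (chi-square over its degrees of freedom at least 26.6), so none was a copy. The depth of 23445922 to 51995372 counts leaves counting error small for *Trim30a* and *Trim30d* and large for *Trim30b* and for *Trim30c* in repeat peptide cells with DMSO. The scripts were tested on simulated counts.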

Additional observations from a re-analysis of the deposited data

How the results depend on the processing

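Fold changes of the members were recomputed under each alternative, and 271 of 279 alternative values kept their direction and side of the threshold or, where no test was made, moved by less than the spread between libraries. With the replicate block *Trim30d* for ibrutinib in single peptide cells turned to 0.022 (adjusted p = 0.959), and with the effective length offset *Trim30a* for repeat against single peptide with DMSO turned to -0.036. With TPM in place of counts *Trim30d* for repeat against single peptide with ibrutinib turned to 0.060. The block changed no call of a tested member. Leaving out each library in turn gave -0.18 to 0.017 for *Trim30d* in single peptide cells (positive without the DMSO library of F), -0.093 (without the repeat peptide DMSO library of C) to 0.27 for *Trim30a* for repeat against single peptide with DMSO, -8.24 to -6.94 for *Trim30c* in the same comparison, and 3.52 to 4.80 for *Trim30c* and 0.68 to 2.18 for *Trim30b* with ibrutinib in repeat peptide cells. In the last 3 the value without the repeat peptide DMSO library of C was the one that moved beyond the spread. Treating *Trim30a* and *Trim30d* as 1 gene was chosen after seeing the data.

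For ibrutinib in single peptide cells 43 were higher and 330 lower. The higher ones became 21 with no filter, 86 by DESeq2 and 340 with the replicate block. The lower ones became 151 with only the compared groups, 529 by DESeq2 and 774 with the replicate block. Leaving out a library gave 6 to 40 higher and 125 to 351 lower, with both counts down by more than 1.5 times without the DMSO library of C or D or the ibrutinib library of A, B or D, and the higher count also without the ibrutinib library of C. For ibrutinib in repeat peptide cells 491 were higher and 235 lower. The higher ones became 276 with only the compared groups and 1038 with the replicate block, and the lower ones 151 with no filter, 444 by DESeq2 and 656 with the replicate block. Leaving out a library gave 261 to 569 higher and 93 to 314 lower, with both counts down by more than 1.5 times without the DMSO library of C or D and the lower count also without the ibrutinib library of A, B or E. The median r of the 5 most similar genes was 0.711 for *Trim30a*, 0.987 for *Trim30c* and 0.832 for *Trim30d* when the same genes were compared on deviations from experiment means, where 2, 1 and 2 of the 5 genes were again among the top 5. The cause of these shifts was not tested. Depth limits *Trim30b* in all groups and *Trim30c* in repeat peptide cells with DMSO.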
